A study of Mus musculus with 6 samples.

Results

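Amino acids cross cell membranes through solute carriers, and 8 families of them were examined here: Slc1, Slc3, Slc6, Slc7, Slc17, Slc36, Slc38 and Slc43. Members were all genes whose symbol in GEO's platform annotation starts with one of these family names, and the brightest probe set (by mean log2 intensity) stood for a gene with several. This gave 70 of 18193 named genes, of which 67 carry a family symbol and 3 (Slc7a6os, Slc36a1os and Slc6a19os) are named for lying opposite such a gene. The study hybridised biotin-labelled total RNA of cultured mouse cells to 6 Affymetrix 3' arrays. By the labels, the 3 arrays labelled IRF2 come from cells that stably carry the open reading frame of IRF2, an interferon regulatory factor, in the lentiviral vector pLenti6.3, and the 3 GFP control arrays from cells that carry GFP in that vector. All are the primary culture #3346 of iKAP, a mouse colorectal cancer model, grown in DMEM with a tetracycline-free supplement. One culture stands for the model, and the labels do not name the promoter in front of either insert. Nothing in the labels says that the arrays of a group come from separate cultures, so p-values measure only how far these arrays differ among themselves, a spread that may be technical.

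The level of each gene is the deposited intensity of a probe set on a linear scale, and levels of different probe sets do not rank genes by abundance. The only probe set of Irf2 averaged 36.3 ± 0.934 on the arrays labelled IRF2 and 62.6 ± 2.53 on the GFP control arrays (mean ± SD of 3). This goes against the label, so every direction below is that of the arrays labelled IRF2, and an exchange of the 2 labels would turn all of them. Neither such an exchange nor whether the probe set reads the introduced open reading frame was tested. Array medians lay between 18.2 and 18.7. Intensities of 18S rRNA were 2099 to 2254 on the arrays labelled IRF2 and 1798 to 2034 on the GFP control arrays, and the part of this in the results was not tested. Of 12 colon epithelial markers, 9 were above the intensity filter of 11.3, of which 2 rose and 3 fell. That is 55.6% called, beside 36.3% of all genes tested. The keratin genes Krt8 and Krt18 rose by 0.50 (SE 0.020, adjusted p = 7.44e-11) and 0.081 (SE 0.018, adjusted p = 0.00250) on the log2 scale, and Krt19 differed by -0.023. The adhesion genes Cdh1, Epcam and Cdh17 fell by 0.75, 0.81 and 0.57. Cdx2 read 81.8 to 88.9 on the arrays labelled IRF2 and 91.4 to 97.5 on the GFP control arrays and did not pass (-0.12, adjusted p = 0.103). Lgals4 (0.062) and Muc2 (-0.093) were dim and did not pass. Vil1, Krt20 and Cdx1 were below the filter, Vil1 at 5.30 to 6.14 on the arrays labelled IRF2 and 6.27 to 7.03 on the GFP control arrays.

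Carriers differ in what they move and in which membrane they sit. Slc1 and Slc38 proteins take up glutamine, alanine, serine and acidic amino acids with sodium, and Slc7 proteins exchange neutral, cationic or acidic amino acids, many of them as light chains held at the surface by an Slc3 heavy chain. Slc6 proteins carry neurotransmitters and neutral amino acids, and Slc17 proteins move organic anions across vesicle, lysosome and cell membranes, glutamate into synaptic vesicles among them. Cells that run short of amino acids raise many of these genes through the transcription factor ATF4, and lysosomal carriers take part in signalling amino acid supply to the growth kinase complex mTORC1.

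Slc17a6 stood apart from the other members in size. It encodes VGLUT2, the transporter that fills synaptic vesicles of excitatory neurons with glutamate, and it was lower on all arrays labelled IRF2. Its brightest probe set read 66.4, 72.0 and 72.9 on the arrays labelled IRF2, against 204, 201 and 203 on the GFP control arrays. The groups lie far apart, with a spread of a few units within each. The log2 fold change, labelled IRF2 over GFP control, was -1.52 (SE 0.049, 95% confidence interval -1.63 to -1.42, adjusted p = 6.42e-12), which puts the GFP control level 2.88-fold higher. Its other probe set read 51.5, 54.1 and 57.0 on the arrays labelled IRF2, against 143, 144 and 138 on the GFP control arrays (-1.39, SE 0.054, adjusted p = 7.59e-10). Both probe sets thus separated the groups in the same direction. Among all 12795 genes above the filter, only 2 fell further than Slc17a6, and by size of change in either direction it ranked 26. In bulk RNA, fewer cells with a transcript and less of it per cell cannot be told apart.

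The 250 bases before an annotated start of Slc17a6, the one furthest upstream of 2, are shown because this gene carries the main difference. They lie at chr7:51621580-51621829 on the plus strand of GRCm38.p6 and come from RefSeq. The capitals mark the only match to the 4 motifs searched, a GC box (GGGCGG or its complement), which begins 36 bases before this start. The window of the other start held no match.
Slc17a6: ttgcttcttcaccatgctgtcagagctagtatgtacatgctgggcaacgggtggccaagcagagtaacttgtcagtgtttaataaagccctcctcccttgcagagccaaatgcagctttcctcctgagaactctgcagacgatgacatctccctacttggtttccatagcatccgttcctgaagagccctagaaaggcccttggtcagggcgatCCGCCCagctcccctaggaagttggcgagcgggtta
GC boxes are common: 35.7% of 32851 RefSeq promoter windows of 300 bases (250 before and 50 after a start) hold one, and 49.3% of the 75 windows of the 52 members that have one do. The core of the element bound by interferon regulatory factors, GAAA repeated after any 2 bases, was in none of the members' 75 windows and in 3.44% of all windows. The motifs were chosen after the values were seen and searched on both strands, and a missing match says only that these letters are not in the window.

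Neither the other vesicular glutamate carrier among the members nor any glutamate receptor gene was called. Slc17a7, the other vesicular glutamate transporter among the members, was below the filter at 7.68 to 9.31 on the arrays labelled IRF2 and 8.20 to 9.29 on the GFP control arrays. None of the 10 glutamate receptor genes above the filter passed limma's test, where 36.3% of all genes tested did. None of the receptor genes had an unadjusted p under 0.05. Those with the smallest p were Grik4 (-0.17), Grik5 (-0.12), Grm2 (0.062) and Grin2b (-0.073). Apart from Grm2, at 48.4 to 54.5 over all arrays, the receptor genes were dim, at 13.7 to 32.3, with SE of 0.074 to 0.096. Small changes in them could therefore be missed, and the test cannot decide whether the receptor genes are unchanged. Of 14 neuronal and neuroendocrine markers, 6 were above the filter and 2 of these fell, a share called of 33.3%, near the 36.3% of all genes tested. The neuronal tubulin gene Tubb3 read 82.7 to 92.6 on the arrays labelled IRF2 and 143 to 163 on the GFP control arrays (-0.83, SE 0.059, adjusted p = 4.36e-08). The stathmin family gene Stmn2 read 37.2 to 44.3 on the arrays labelled IRF2 and 57.9 to 65.5 on the GFP control arrays (-0.60, SE 0.076, adjusted p = 1.85e-05). The other 4 did not pass and their groups overlap: Syp (0.15), Rbfox3 (0.10), Syt1 (0.068) and Map2 (-0.042), with intensities of 15.3 to 56.8. The summed intensity of the 14 markers was 304 to 340.4 on the arrays labelled IRF2 and 397 to 414 on the GFP control arrays. Without Tubb3 and Stmn2, the sum of the other 12 was 184 to 203.5 on the arrays labelled IRF2 and 183 to 193 on the GFP control arrays, so the gap in the sum lies in those 2 genes. Of the 8 markers below the filter, Snap25, Neurod1, Insm1, Chgb and Elavl4 read between 3.99 and 5.88, within the range of the array's tryptophan control probe sets (3.69 to 6.52), which no mouse transcript should fill. Chga and Gad1 read above that range, at 7.79 to 10.8, and Gad2 read 6.36 to 8.99. Whether Tubb3 and Stmn2 share a source with Slc17a6 was not tested.

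Across the members the changes were small. Of the 41 members above the filter, 5 rose and 8 fell at an adjusted p under 0.05, and 28 did not pass. That is 31.7% of them, and 36.3% of all genes tested passed (16.5% higher and 19.8% lower), so the members' share lies near the background. Leaving out 1 array gave 2 to 5 higher and 6 to 9 lower, with 2 higher without the replicate 2 array of either group and 3 without the replicate 1 array of either. Without the intensity trend 5 were higher and 5 lower. The median log2 fold change was 0.0075 over the members and -7.04e-04 over all genes, and the median absolute change was 0.10 over the members and 0.093 over all genes. Slc17a6 was the only member called with a change of at least 0.5, where 3.45% of all genes were, and the next largest change of any member above the filter was 0.37 in size. The groups did not overlap in 20 of the 41 members (9 higher, 11 lower), or 48.8%, against 46.2% of all genes.

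**Figure D1:**
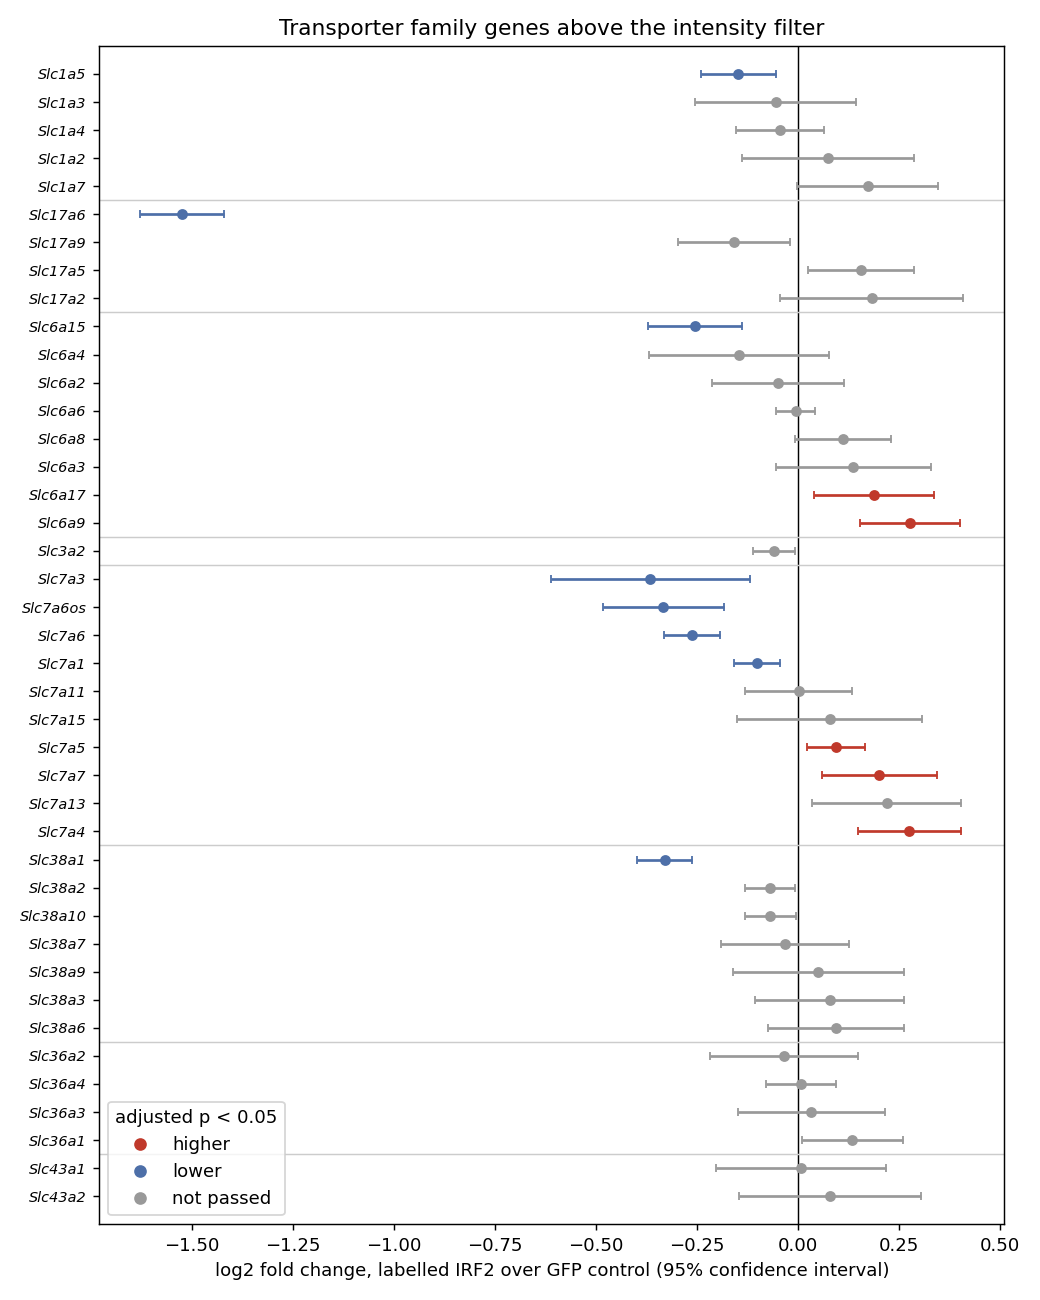
Log2 fold change, labelled IRF2 over GFP control, with its 95% confidence interval for the 41 members above the intensity filter, grouped by family. Slc17a6 lies alone at -1.52, and all other members shown lie between -0.37 and 0.28.

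**Figure D2:**
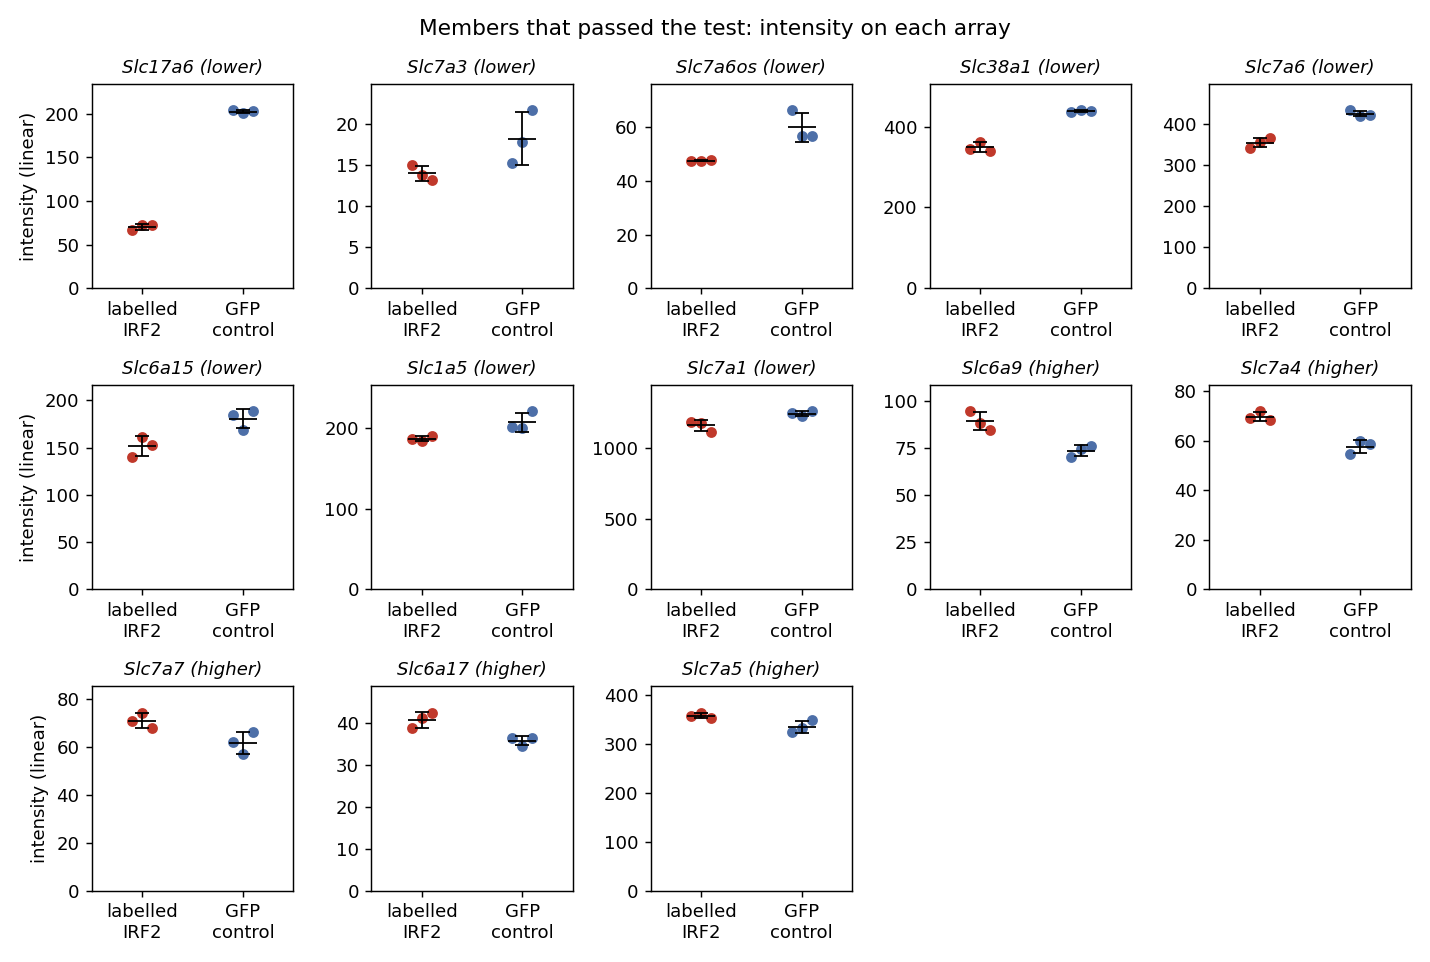
Linear intensity on each array (points), with the mean and SD of 3 arrays (bars), for the 13 members that passed the test. The groups do not overlap in any of the 13, and Slc17a6 has the widest gap for its level, at 66.4 to 72.9 on the arrays labelled IRF2 and 201 to 204 on the GFP control arrays.

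Among the plasma membrane carriers of glutamate none passed limma's test, where 36.3% of all genes tested did. Slc1a2, Slc1a3 and Slc1a7, the excitatory amino acid transporters above the filter, had log2 fold changes of 0.074 (95% confidence interval -0.14 to 0.29), -0.055 (-0.25 to 0.14) and 0.17 (-0.0022 to 0.35), and none had an unadjusted p under 0.05. All of them were dim, Slc1a2 at 12.9 to 16.1, Slc1a3 at 22.7 to 28.4 and Slc1a7 at 21.4 to 26.9. The other probe sets of Slc1a2 and Slc1a3 were below the filter, so the values do not settle whether these genes are expressed. Slc1a1 and Slc1a6 were below the filter. Slc1a5, the glutamine carrier ASCT2, read 186, 183 and 189.6 on the arrays labelled IRF2, against 201, 199.7 and 220.2 on the GFP control arrays. It fell by 0.15 (SE 0.043, adjusted p = 0.0141), with groups that lie close together. It did not pass once the array labelled IRF2 of replicate 2 (-0.14, adjusted p = 0.0569) or the GFP control array of replicate 3 (-0.10, adjusted p = 0.0929) was left out, and its other probe set gave 0.066 (adjusted p = 0.677). Slc1a4, the related carrier of alanine and serine, differed by -0.044 (95% confidence interval -0.15 to 0.065).

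In the Slc38 family of sodium-coupled neutral carriers, 1 of 7 members above the filter passed, or 14.3%, beside 36.3% of all genes tested. This was Slc38a1, which brings in glutamine and read 345, 362 and 339 on the arrays labelled IRF2, against 436, 440.3 and 438 on the GFP control arrays. The GFP control arrays lie close together and all above the arrays labelled IRF2. The log2 fold change was -0.33 (SE 0.032, adjusted p = 1.06e-06), and its other probe set gave -0.31 (SE 0.043, adjusted p = 1.13e-04). Slc38a2, its neighbour on chromosome 15 and a gene induced by amino acid shortage, read 1405, 1416 and 1478 on the arrays labelled IRF2, against 1434, 1542 and 1536 on the GFP control arrays. These groups overlap (-0.070, SE 0.029, adjusted p = 0.0800), and its second probe set gave 0.050 (adjusted p = 0.386). It did pass when the replicate 3 array labelled IRF2 (-0.092, adjusted p = 0.0331) or the replicate 1 GFP control array (-0.10, adjusted p = 0.00652) was left out. Slc38a4, the next gene along, was below the filter. Slc38a10 read 486, 504 and 513 on the arrays labelled IRF2, against 532, 514 and 531 on the GFP control arrays (-0.068, SE 0.030, adjusted p = 0.0888), and its second probe set gave 0.066.

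The heavy chain gene Slc3a2 and its light chains did not move in one direction. Slc3a2, which encodes 4F2hc or CD98, read 884, 877 and 882 on the arrays labelled IRF2, against 937, 897 and 921 on the GFP control arrays. The groups do not overlap, but the difference is small and did not pass (-0.059, 95% confidence interval -0.11 to -0.0072, adjusted p = 0.0725). It did pass when the replicate 2 GFP control array was left out (-0.076, adjusted p = 0.0288). Slc7a6, the light chain y+LAT2 that exchanges arginine for glutamine, read 344, 356 and 367 on the arrays labelled IRF2, against 434, 421 and 424 on the GFP control arrays. It fell by 0.26 (SE 0.032, adjusted p = 1.21e-05), and its other probe set also gave -0.26 (adjusted p = 4.55e-05).

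Slc7a7, the sister light chain y+LAT1, read 71.0, 74.4 and 67.8 on the arrays labelled IRF2, against 62.0, 57.2 and 66.3 on the GFP control arrays. It rose by 0.20 (SE 0.066, adjusted p = 0.0262), and its other probe set rose by 0.30 (SE 0.068, adjusted p = 0.00455). The call on the brightest probe set was lost without the replicate 1 or 2 array labelled IRF2 or the replicate 1 or 2 GFP control array, with changes of 0.15 to 0.21 and adjusted p of up to 0.116. Slc7a5, the light chain LAT1 that imports leucine and other large neutral amino acids, read 356, 363 and 352 on the arrays labelled IRF2, against 324, 331 and 348 on the GFP control arrays. Its rise was slight (0.094, SE 0.034, adjusted p = 0.0396) and was lost when any 1 array other than the replicate 3 GFP control array was left out, with changes of 0.073 to 0.10 and adjusted p of 0.0511 to 0.145. Slc7a11, the cystine-glutamate exchanger xCT, read 85.9, 77.4 and 80.4 on the arrays labelled IRF2, against 78.0, 78.3 and 87.2 on the GFP control arrays. These groups overlap (0.0020, 95% confidence interval -0.13 to 0.13). Slc7a8 and Slc7a10 were below the filter. So were the other heavy chain gene, Slc3a1, at 5.64 ± 0.391 on the arrays labelled IRF2 and 5.81 ± 0.194 on the GFP control arrays (mean ± SD of 3), and its light chain gene Slc7a9.

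Ratios within each array show how far Slc7a6 and the light chains Slc7a5 and Slc7a7 stood apart. The 5 ratios were formed from genes already seen to differ in their change, so they restate the values above as a description. An exact permutation of the group labels gave p = 0.1 for each. That is the smallest value 3 arrays against 3 allow, so this test cannot decide. The ratio of the Slc7a5 to the Slc7a6 intensity was 1.04, 1.02 and 0.959 on the arrays labelled IRF2, against 0.747, 0.786 and 0.822 on the GFP control arrays, a log2 difference of 0.36. That of Slc7a7 to Slc7a6 was 0.207, 0.209 and 0.185 on the arrays labelled IRF2, against 0.143, 0.136 and 0.157 on the GFP control arrays, a log2 difference of 0.46. The ratio of Slc7a5 to the heavy chain gene Slc3a2 was higher on the arrays labelled IRF2 by 0.15 on the log2 scale, whereas those of Slc7a6 to Slc3a2 and of Slc38a1 to Slc38a2 differed by -0.20 and -0.26. The groups of arrays do not overlap in any of the 5.

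**Figure D3:**
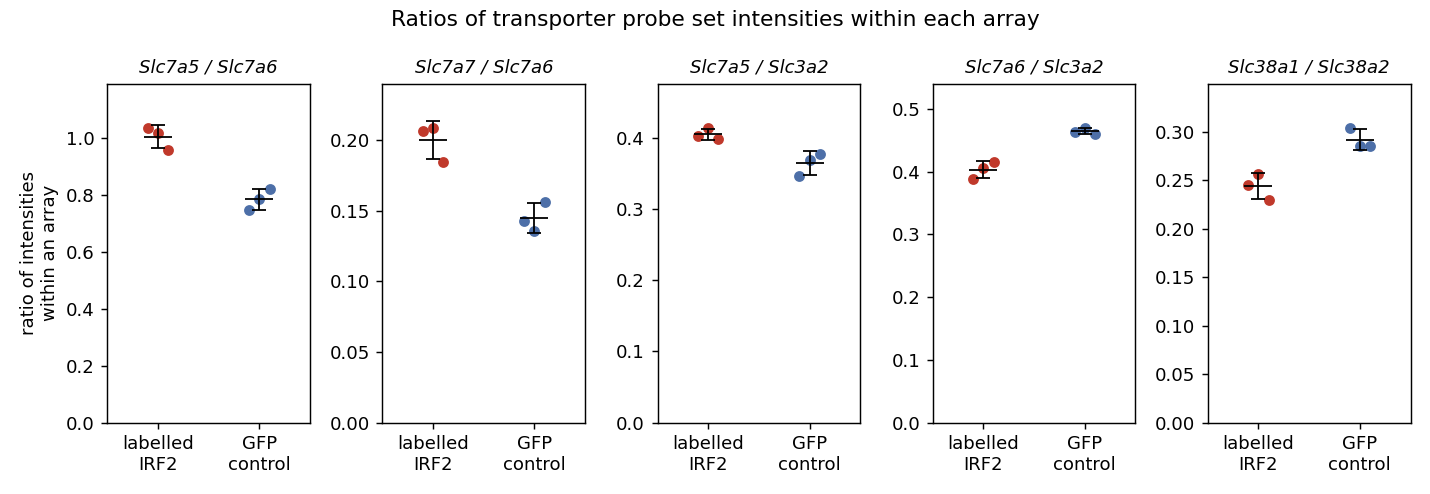
Ratio of 2 probe set intensities within each array (points), with the mean and SD of 3 arrays (bars). The Slc7a5 to Slc7a6 ratio is 0.959 to 1.04 on the arrays labelled IRF2 and 0.747 to 0.822 on the GFP control arrays, and the Slc7a6 to Slc3a2 ratio runs the other way.

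Of these light chains, Slc7a7 and Slc7a11 have a match to the amino acid response element through which ATF4 acts, written here as TGATGNAAN, in a promoter window. The 250 bases before a start in RefSeq's table are shown for both because 1 of these transcripts rose and the other did not pass. The start is the furthest upstream of 5 for Slc7a7 and the only 1 for Slc7a11. The Slc7a7 stretch lies at chr14:54417945-54418194 and the Slc7a11 stretch at chr3:50443614-50443863, both on the minus strand of GRCm38.p6, and the capitals mark the matches.
Slc7a7: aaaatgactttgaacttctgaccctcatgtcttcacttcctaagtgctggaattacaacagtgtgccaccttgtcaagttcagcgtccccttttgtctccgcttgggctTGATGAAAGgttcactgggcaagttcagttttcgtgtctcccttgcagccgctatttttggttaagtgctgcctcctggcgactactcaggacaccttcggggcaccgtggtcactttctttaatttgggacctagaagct
Slc7a11: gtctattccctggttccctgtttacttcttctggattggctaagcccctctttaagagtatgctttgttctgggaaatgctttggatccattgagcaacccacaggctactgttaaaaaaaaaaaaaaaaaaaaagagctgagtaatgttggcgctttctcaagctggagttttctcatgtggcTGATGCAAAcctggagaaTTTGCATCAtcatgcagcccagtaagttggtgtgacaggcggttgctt
The Slc7a7 match begins 141 bases before this start, and another begins at its last base and runs past the stretch. The 2 matches of Slc7a11, which lie on opposite strands, begin 66 and 48 bases before the start. The element occurs in windows of 5 of the 52 members. Of these Slc7a7 rose, Slc7a11 and Slc1a4 did not pass, and Slc17a1 and Slc6a21 were below the filter. By windows this is 8% of the members' 75, against 3.95% of all windows. Windows of 1 gene can overlap, so a site can count more than once, as 1 Slc7a7 site does here. The E-box CACGTG, bound by Myc and related factors, lies in windows of 10 members, 6 of which did not pass while 4 were below the filter. It is in 13.3% of the members' windows, against 7.15% of all windows. A match is a description of the letters and shows no binding in these cells.

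The cationic amino acid carriers of the Slc7 family work without a heavy chain, and both of those above the filter fell. Slc7a1, the arginine and lysine carrier CAT1, read 1185, 1178 and 1111 on the arrays labelled IRF2, against 1248, 1222 and 1257 on the GFP control arrays. It fell by 0.10 (SE 0.027, adjusted p = 0.00721), and its second probe set fell by 0.18 (SE 0.028, adjusted p = 2.15e-04). Slc7a3, the related CAT3, was dim, at 13.2 to 15.0 on the arrays labelled IRF2 and 15.2 to 21.6 on the GFP control arrays, and fell by 0.37 (SE 0.11, adjusted p = 0.0209). It did not pass once the array labelled IRF2 of replicate 2 (-0.35, adjusted p = 0.0621) or replicate 3 (-0.33, adjusted p = 0.0753) or the GFP control array of replicate 3 (-0.23, adjusted p = 0.126) was left out. With 16 added to each intensity before the log, Slc7a3 came to -0.18. Slc7a4, which is related to them in sequence, read 69.1, 71.8 and 68.3 on the arrays labelled IRF2, against 54.5, 59.7 and 58.6 on the GFP control arrays. Its groups do not overlap, and it rose by 0.28 (SE 0.060, adjusted p = 0.00189), with 0.20 (SE 0.096, adjusted p = 0.145) in its second probe set. Slc7a2 was below the filter.

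Slc7a6os, a protein-coding gene, lies next to Slc7a6 on chromosome 8 and also fell. It read 47.4, 47.4 and 47.7 on the arrays labelled IRF2, against 66.4, 56.9 and 56.8 on the GFP control arrays (-0.33, SE 0.070, adjusted p = 0.00150), and its other probe set gave -0.28 (adjusted p = 0.0153). Of the 11 pairs of members that are direct neighbours among RefSeq's protein-coding genes, this is the only one in which both passed. Most of the 11 could not show this, because 1 or both genes were below the filter. The other pairs with both genes above it were Slc36a3 with Slc36a2, Slc36a2 with Slc36a1, and Slc38a1 with Slc38a2.

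In the Slc6 family, which carries neurotransmitters, amino acids and related compounds with sodium and chloride, 2 of the 8 members above the filter rose and 1 fell. That is 37.5% called, near the 36.3% of all genes tested. Slc6a9, the glycine transporter GLYT1, read 94.4, 88.5 and 84.8 on the arrays labelled IRF2, against 70.4, 74.5 and 75.9 on the GFP control arrays. The groups are well apart, and it rose by 0.28 (SE 0.058, adjusted p = 0.00144), with 0.16 (SE 0.065, adjusted p = 0.0920) in its second probe set. Slc6a15, a carrier of branched-chain amino acids and proline, read 141, 161 and 152 on the arrays labelled IRF2, against 185, 169 and 188 on the GFP control arrays, and fell by 0.26 (SE 0.055, adjusted p = 0.00169). Slc6a17, a vesicular carrier of neutral amino acids, had 0.19 (SE 0.069, adjusted p = 0.0450) in its brightest probe set and -0.0097 in the second. That call was also lost when any 1 array other than the replicate 1 array labelled IRF2 was left out, with changes of 0.16 to 0.20 and adjusted p of 0.0700 to 0.144. Quantile normalization gave -0.032, with the brightest probe set chosen anew after it. The first 2 probe sets of Slc6a17 lie close in level, at 34.5 to 42.4 and 37.3 to 39.5, and whether the choice changed was not examined.

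The other Slc6 members above the filter did not pass. Slc6a6, the taurine transporter, read 1163, 1136 and 1139.8 on the arrays labelled IRF2, against 1159, 1132 and 1160.1 on the GFP control arrays, a difference bounded by a 95% confidence interval of -0.054 to 0.043. Slc6a8, the creatine transporter, differed by 0.11 (SE 0.056, adjusted p = 0.136). It passed when the replicate 3 array labelled IRF2 (0.17, adjusted p = 0.0354) or the replicate 1 GFP control array (0.17, adjusted p = 0.0290) was left out. The monoamine transporters Slc6a2, Slc6a3 and Slc6a4 were dim, between 12.0 and 31.1.

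Apart from Slc17a6, the members known from lysosomes or other vesicles differed by small amounts. The vesicular carrier Slc6a17, described above, passed on its brightest probe set (0.19, adjusted p = 0.0450), a call that depended on single arrays. Slc17a5, the lysosomal sialic acid exporter, read 71.7 to 79.0 on the arrays labelled IRF2 and 63.6 to 70.7 on the GFP control arrays (0.16, 95% confidence interval 0.025 to 0.29, adjusted p = 0.0614), and without the replicate 3 GFP control array it passed (0.20, adjusted p = 0.0418). Slc17a9, the vesicular nucleotide transporter, read 55.0 to 61.2 on the arrays labelled IRF2 and 63.1 to 69.8 on the GFP control arrays (-0.16, adjusted p = 0.0741), and its second probe set fell by 0.25 (SE 0.076, adjusted p = 0.0229). Slc36a1, the proton-coupled carrier PAT1, read 64.1 to 67.1 on the arrays labelled IRF2 and 57.3 to 61.8 on the GFP control arrays (0.13, 95% confidence interval 0.0094 to 0.26, adjusted p = 0.0896). Slc38a9, the lysosomal arginine sensor, and Slc38a7, a lysosomal glutamine exporter, differed by 0.050 (95% confidence interval -0.16 to 0.26) and -0.033 (-0.19 to 0.13). The other Slc38a9 probe sets above the filter, all dim, gave 0.11, 0.26 and 0.065, and none of them passed. None of the 4 Slc36 and 2 Slc43 genes above the filter passed limma's test, where 36.3% of all genes tested did. Slc36a1 was the only 1 of them with an unadjusted p under 0.05.

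**Figure D4:**
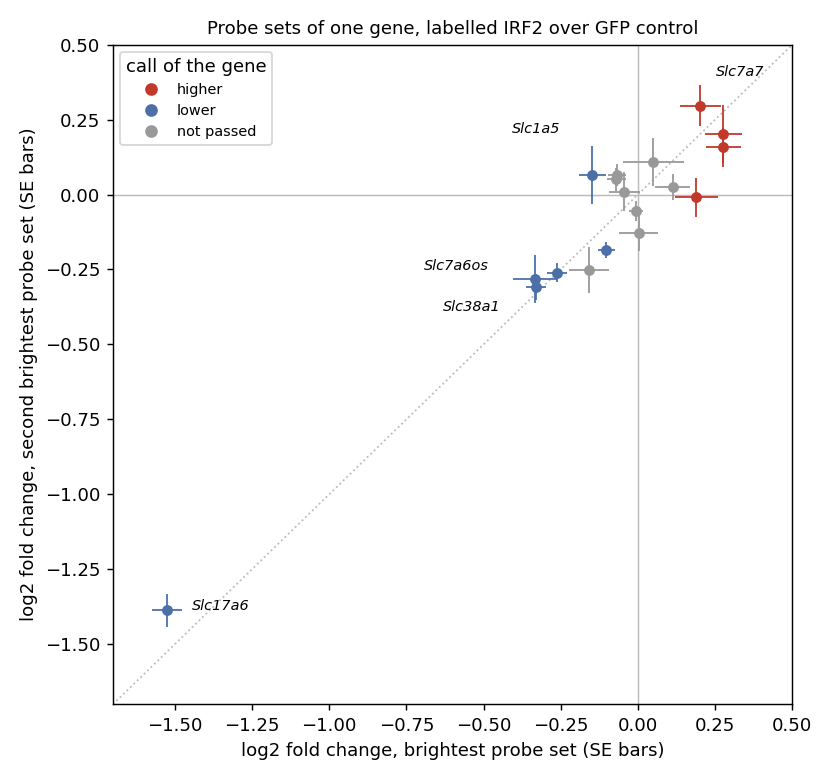
Log2 fold change of the brightest (horizontal) and second brightest (vertical) probe set of each of the 18 members with at least 2 probe sets above the filter, with SE bars and a dotted line of equality. Slc17a6 lies at -1.52 and -1.39, and 12 of the 18 members have the same sign in both probe sets.

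A second probe set above the filter was available for 18 members, and in 12 its change had the same sign as in the brightest one. Of the 10 members that passed and have such a probe set, it was called the same way in 6: Slc17a6, Slc38a1, Slc7a1, Slc7a6, Slc7a6os and Slc7a7. When each probe set was tested on its own, 28.7% of all probe sets above the filter were called. Which stretch of its transcript a probe set covers was not examined.

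The 29 members below the filter read between 3.26 and 12.5, and 11 of them did not exceed the highest tryptophan control value on any array. They include the intestinal and renal carriers Slc6a14, Slc6a18, Slc6a19, Slc6a20a, Slc6a20b, Slc7a9 and Slc3a1, the GABA and betaine carriers Slc6a11, Slc6a12 and Slc6a13, and the glycine and proline carriers Slc6a5 and Slc6a7. Without the filter, where 24.9% of all genes were called, 1 of the 29 was called, Slc38a4, which read 5.35 to 5.57 on the arrays labelled IRF2 and 6.32 to 7.46 on the GFP control arrays (-0.32, adjusted p = 0.0128). Slc17a3 and Slc36a1os lay just below the filter, both with a geometric mean of 11.2, and Slc43a1 and Slc17a2 just above it, at 11.3 and 11.5.

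Other genes of amino acid supply were set beside the carriers. Of 24 amino acid response genes (targets of ATF4) above the filter, 11 fell and 4 rose, with a median log2 fold change of -0.096. Psat1, an enzyme of serine synthesis, fell by 0.26 (SE 0.023), the mitochondrial folate enzyme gene Mthfd2 by 0.33 (SE 0.033) and the transcription factor gene Cebpb by 0.33 (SE 0.032), whereas the stress protein gene Nupr1 rose by 0.30 (SE 0.026). The 62.5% called stand beside 36.3% of all genes tested, a share that was 46.5% with a filter at the 60th percentile. The list was not matched to all genes in intensity. Of 22 genes of amino acid sensing by mTORC1, 9 fell and 3 rose, or 54.5% called against 36.3% of all genes tested, with a median of -0.025. Among those that fell were the folliculin partner gene Fnip1 (-0.35, SE 0.049), the GTPase gene Rragc (-0.17, SE 0.023), Lamtor5 (-0.18, SE 0.026) and Castor2 (-0.25, SE 0.047). The 3 that rose were Lamtor2 (0.14, SE 0.036), Nprl3 (0.14, SE 0.042) and Sesn3 (0.18, SE 0.047).

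Among 17 glutamine, glutamate and arginine enzymes, 6 fell and 3 rose (median -0.059), or 52.9% called against 36.3% of all genes tested. The 3 that rose were Glul (0.33, SE 0.037), Gfpt1 (0.11, SE 0.037) and Asl (0.10, SE 0.033). The mitochondrial aminotransferase gene Got2 fell by 0.31 (SE 0.024), the glutamate dehydrogenase gene Glud1 by 0.25 (SE 0.021), Gclm, which encodes a subunit of the first enzyme of glutathione synthesis, by 0.28 (SE 0.029) and the polyamine enzyme gene Odc1 by 0.28 (SE 0.027). Of 11 genes of branched-chain, tryptophan and tyrosine catabolism, 4 rose and 3 fell (median 0.11), or 63.6% called against the same 36.3%. Bcat1, the cytosolic branched-chain aminotransferase, averaged 13.6 ± 0.508 on the arrays labelled IRF2, against 37.1 ± 2.65 on the GFP control arrays (-1.44, SE 0.082, adjusted p = 3.50e-09). Dbt, of the branched-chain ketoacid dehydrogenase, fell by 0.48 (SE 0.066), and Ivd and Mccc1 of leucine breakdown rose by 0.28 (SE 0.046) and 0.18 (SE 0.037). Of 14 amino acid carriers of other families, 3 fell and 2 rose (median 0.035), or 35.7% called, near the 36.3% of all genes tested. The aromatic amino acid carrier Slc16a10 fell by 0.36 (SE 0.076) and the mitochondrial ornithine carrier Slc25a15 by 0.37 (SE 0.053), and the mitochondrial glutamate carrier Slc25a22 and the peptide and histidine carrier Slc15a4 rose by 0.18 (SE 0.055) and 0.15 (SE 0.038). These lists share a few genes, such as Asns, with each other.

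Markers of other cell types were read in the same way. Of 5 immune markers above the filter Cd14 rose (0.18, SE 0.064), and Cd3e (0.039), Csf1r (-0.025), Lyz2 and Cd68 did not pass. The summed intensity of the 9 measured was 304 to 315 on the arrays labelled IRF2 and 274 to 308 on the GFP control arrays, and the defining gene Ptprc read 4.40 to 5.42 on the arrays labelled IRF2 and 4.30 to 4.71 on the GFP control arrays. Of 6 fibroblast markers Pdgfra (0.70, SE 0.10) and Acta2 (0.37, SE 0.057) rose, Pdgfrb fell (-0.40, SE 0.081), and Col3a1 (0.18) did not pass, nor did Col1a2 and Dcn. The sum of 10 was 259 to 276 on the arrays labelled IRF2 and 237 to 241 on the GFP control arrays. Of 3 endothelial markers Egfl7 fell (-0.22, SE 0.074), and Cdh5 (0.14) and Kdr (0.093) did not pass. The sum of 8 was 101 to 114 on the arrays labelled IRF2 and 109 to 119 on the GFP control arrays. The shares called were 20% of the immune, 50% of the fibroblast and 33.3% of the endothelial markers, beside 36.3% of all genes tested. None of the brush border markers above the filter, Mgam, Mep1a and Alpi, passed limma's test or had an unadjusted p under 0.05, again beside 36.3% of all genes tested that passed. The part of these markers in the carrier results was not tested.

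**Figure D5:**
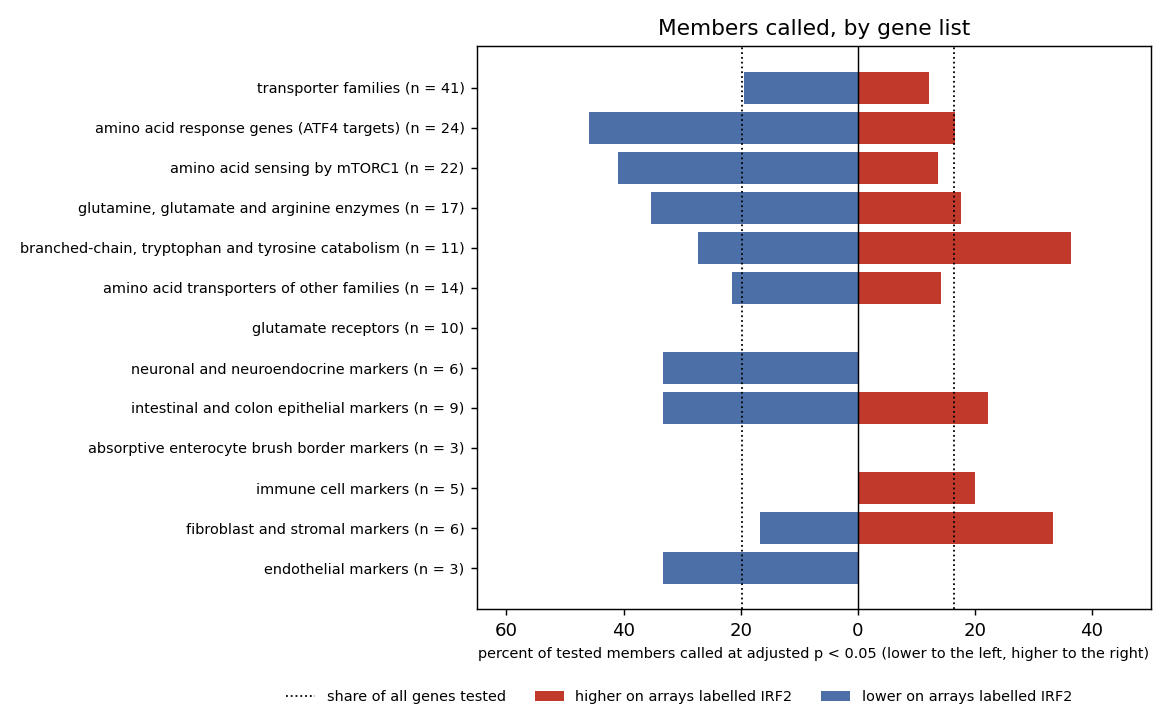
Percent of the tested members of each gene list that were called lower (left) or higher (right) on the arrays labelled IRF2, with n the number tested. Dotted lines mark the share of all genes tested (19.8% lower, 16.5% higher), and the bars of the transporter families (8 of 41 lower, 5 of 41 higher) do not pass either line.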

How the data were processed

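Total RNA of 6 samples was hybridised to 1-colour arrays, and the authors deposited 45101 linear intensity values for each, 1 for every probe set. MAS5 appears in the submitters' processing notes, with role and version unstated, as are the background correction and scaling. No detection calls were used.

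Values were taken to log2 with no pseudocount and no further scaling. Of 45037 probe sets that are not controls, 34945 have 1 symbol in GEO's platform annotation. All 70 members were found by gene number in RefSeq's table of GRCm38.p6, used for names and gene order. Genes whose mean log2 did not exceed the 40th percentile of the non-control probe sets (intensity 11.3) were dropped, which left 12795. limma 3.58.1 in R 4.3.3 (lmFit, eBayes with an intensity trend) was fitted to all of them with group as the only term (4 residual degrees of freedom), two-sided, with Benjamini-Hochberg adjustment over all genes and a threshold of 0.05. The fit was tested on simulated data.

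The members and gene lists were chosen with earlier results of these data known. By rule, array values are given for members called with a log2 change of at least 0.5, heavy and light chains and the 6 brightest members, and from each other list the 4 genes with the smallest p are named. Other members that passed and further list genes were added after their values were seen. Alternatives were another pseudocount, filter, normalization, probe set rule and variance model, the replicate number as a block, and leaving out each array.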

Additional observations from a re-analysis of the deposited data

How the results depend on the processing

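Precision is limited by 3 arrays a group, by 4 residual degrees of freedom and, for dim genes, by signal near the filter. The members counted as higher (5) and lower (8) came to 3 and 9 without a filter, where 70 members were tested, and to 5 and 5 without the intensity trend, where the share of all genes called was 29.7%. Leaving out 1 array gave 2 to 5 higher and 6 to 9 lower. Without the replicate 2 array labelled IRF2 or the replicate 2 GFP control array 2 were higher, and without the replicate 1 array labelled IRF2 or the replicate 1 GFP control array 3 were. The other alternatives gave counts within 1.5 times of these. The cause was not tested.

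Deviations of same-numbered arrays from their group means had correlations of 0.07, -0.08 and -7.71e-04. Those of differently numbered arrays lay between -0.11 and 0.11. The labels do not say what the numbers stand for and these values cannot settle it, so the main fit did not use the numbers. With the replicate block 5 were higher and 9 lower: Slc6a17 lost its call (adjusted p = 0.0579), and Slc38a2 (-0.070, adjusted p = 0.0367) and Slc6a8 (0.11, adjusted p = 0.0313) passed.

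Slc17a6, Slc38a1, Slc6a9, Slc6a15, Slc7a4, Slc7a6 and Slc7a6os kept direction and call under 14 of the alternatives (all but the second brightest probe set), Slc17a6 between -1.55 and -1.34. Without the intensity trend Slc1a5, Slc7a1, Slc7a3, Slc7a5 and Slc7a7 lost their calls. In the mean of all probe sets Slc1a5 (-0.041), Slc7a1 (-0.12) and Slc6a17 (0.059) did, and without a filter Slc7a5 and Slc6a17 did. Those means include dim probe sets of Slc1a5 (13.5 to 16.6) and Slc7a1 (9.22 to 12.5). Of the 28 members that did not pass, 7 passed under at least 1 of these alternatives.

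Some changes turned sign, those of Slc1a5 (-0.15) and Slc6a17 (0.19), which had passed, and others of members that had not. Quantile normalization, with the brightest probe set chosen anew after it, gave -0.010 for Slc43a1, -0.032 for Slc6a17 and 0.0019 for Slc6a6. The mean of all probe sets gave 0.062 for Slc1a4, 0.012 for Slc38a2, 8.93e-04 for Slc6a6 and -0.063 for Slc7a11. The second brightest probe set, an alternative chosen after seeing the data, gave 0.0098 for Slc1a4, 0.066 for Slc1a5, 0.066 for Slc38a10, 0.050 for Slc38a2, -0.0097 for Slc6a17 and -0.13 for Slc7a11. Leaving out 1 array turned the sign of Slc1a3 (-0.15 to 0.011), Slc36a2 (-0.11 to 0.021), Slc36a4 (-7.59e-04 to 0.017), Slc38a3 (-0.011 to 0.13), Slc38a7 (-0.083 to 0.021), Slc38a9 (-0.053 to 0.13), Slc43a1 (-0.034 to 0.077), Slc43a2 (-0.019 to 0.18), Slc6a6 (-0.017 to 9.55e-04) and Slc7a11 (-0.039 to 0.055), with the range over the 6 arrays left out, and none of these had passed the test.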
